A study of Mus musculus with 22 samples.

Results

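The comparison was between macrophages held for 12 h and for 6 h under lipopolysaccharide (LPS, a bacterial cell wall component sensed by Toll-like receptor 4) together with interleukin-10 (IL-10, an anti-inflammatory cytokine). It used 4 libraries of the 22 in the series, namely 2 libraries at each time, chosen by their labels, although the comparison was taken up with earlier results of these data known. All cells were bone marrow-derived macrophages of Il10-/- C57BL/6 mice aged 6 to 12 weeks, grown for 7 to 8 days in medium conditioned by L929 cells, a fibroblast line that secretes macrophage growth factor. LPS and recombinant IL-10 were each given at 100 ng/ml. Beside these groups the same table held untreated cells (the time of harvest is not given), LPS alone and IL-10 alone at 6 h and 12 h, again with 2 libraries a group. The deleted allele is not described, no wild-type macrophages were included, and nothing says whether replicate libraries came from separate animals or cultures, so every p-value measures the spread between these libraries, which may be technical.

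LPS acts through the adaptors MyD88 and TRIF and switches on NF-kB and interferon regulatory factors, which drive cytokine, chemokine and interferon-stimulated genes in waves. IL-10 acts through its receptor and the transcription factor STAT3, which induces genes such as Socs3 and restrains many of the LPS-induced cytokine genes. Macrophages under LPS also leave the cell cycle, rewire their metabolism and take up and store iron, and later programmes of lipid efflux, haem breakdown and antioxidant defence accompany the resolution of inflammation.

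The deleted gene was read first. Il10 (chr1:131019845-131024974, GRCm38) had 1058 and 1456 normalized reads at 6 h and 544.9 and 471.2 at 12 h, where a normalized read is a read divided by the size factor of its library and is comparable between libraries but not between genes of different length. Both 12 h libraries lay below both 6 h libraries, and Il10 transcript fell by 1.29 ± 0.35 on the log2 scale (SE, limma adjusted p = 0.028). The untreated cells had 194.8 and 453.6. Reads of the gene were thus present in every one of these libraries, and without knowing the allele or the exons counted they neither check nor contradict the label. The call was lost without the second 6 h library (adjusted p = 0.2), the first 12 h library (0.056) or the second 12 h library (0.18), and under quantile normalization (0.086).

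The cell label was compared with marker genes. The 8 macrophage markers were all detected and summed to 422232 and 389151 normalized reads at 6 h and to 466992 and 373283 at 12 h, so the ranges of both times overlapped. The 7 neutrophil markers, of which S100a8 and S100a9 carried nearly all reads and Ly6g and Elane were at or near 0, summed to 2686 and 3118 at 6 h and to 1576 and 1378 at 12 h. The 5 dendritic cell markers gave 783.7 and 815.9 against 740.4 and 632.3. T or NK cell markers (5 genes) stayed between 41.99 and 67.49 with Cd3e and Ncr1 at 0. The 3 endothelial markers (Cdh5, Pecam1, Kdr) moved from 882 and 767.1 to 2379 and 1313. Kdr carried most of these reads, with 645.5 and 598 at 6 h and 2072 and 961.4 at 12 h. Under LPS alone at 6 h Kdr had 4107 and 4471, and in untreated cells 182.6 and 208.8. Pecam1 went from 189.9 and 147.5 to 268.5 and 306.7. Cdh5 had 46.64 and 21.56 at 6 h and 37.95 and 44.99 at 12 h, which overlap. For mast cells, fibroblasts and erythroid cells the sums were at most 6.808 in any of the 4 libraries, with Mcpt4, Mcpt8 and Col3a1 at 0 in all of them. What part these other cell types had in any result was not tested.

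Sequencing depth was 31772075 and 25082392 reads in the 6 h libraries and 26448928 and 18412505 in the first and second 12 h library, within a range of 15162195 to 31772075 over the table. The 12 h libraries did not agree on the inflammatory genes, and this bears on everything that follows. Across genes their log2 values correlated at r = 0.977, against 0.985 for the 6 h pair, and the median gap between replicates was 0.32 at 12 h and 0.36 at 6 h. However, 52 genes were more than 8-fold higher in the first 12 h library than in the second, and 1 gene the other way. The first 12 h library correlated more closely with the second 12 h library of LPS alone (r = 0.978) than the second did (0.946), and these values are a description only. The label of the first 12 h library was taken as given and no other measure here checks it, so whether it is a true replicate of the second is in doubt, and every 12 h mean of LPS with IL-10 rests on both. The LPS libraries at 12 h differed among themselves as well, with 38464 and 131395 normalized reads of Tnf. A further measured feature was base composition: across 12688 genes the change from 6 h to 12 h rose with transcript GC content (Spearman 0.516, a description across genes of the same libraries), against 0.156 for LPS alone and -0.173 for IL-10 alone. Replicates of 1 group differed with GC content as well, at 0.705 between the 6 h libraries (first minus second), -0.412 between the 12 h libraries and 0.804 between the untreated ones, so this relation is not particular to the change with time. Transcripts higher at 12 h had a median GC of 52.8% and those lower 45.2%, with 49.1% over all, and its part in the results was not tested beyond refitting with the trend removed.

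Of 12817 genes tested, 2416 changed between 6 h and 12 h at an adjusted p below 0.05 (18.8%), 1189 of them upward (9.28%) and 1227 downward (9.57%), and in all 2416 the 12 h libraries did not overlap the 6 h libraries. Over all genes tested, both 12 h libraries lay above both 6 h libraries in 30.1% and below them in 34.8%. The first library lay above and the second below both 6 h libraries in 533 genes (4.16%), and the reverse held in 304 (2.37%). Without the first 12 h library 2340 genes passed (18.3%), 8.34% upward and 9.92% downward. Without the second 487 passed (3.8%), 2.4% upward and 1.4% downward, and 403 of the 2416 passed in the same direction in both. Leaving out the second 6 h library gave 441. Rises made up 49.2% of the calls, but 62.5% with equal library totals, which moved the median of all genes from -0.03 to 0.18, and 59.6% in edgeR. After the GC trend was removed, 2127 of the 2406 changed genes with a known GC content passed in the same direction.

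**Figure D1:**
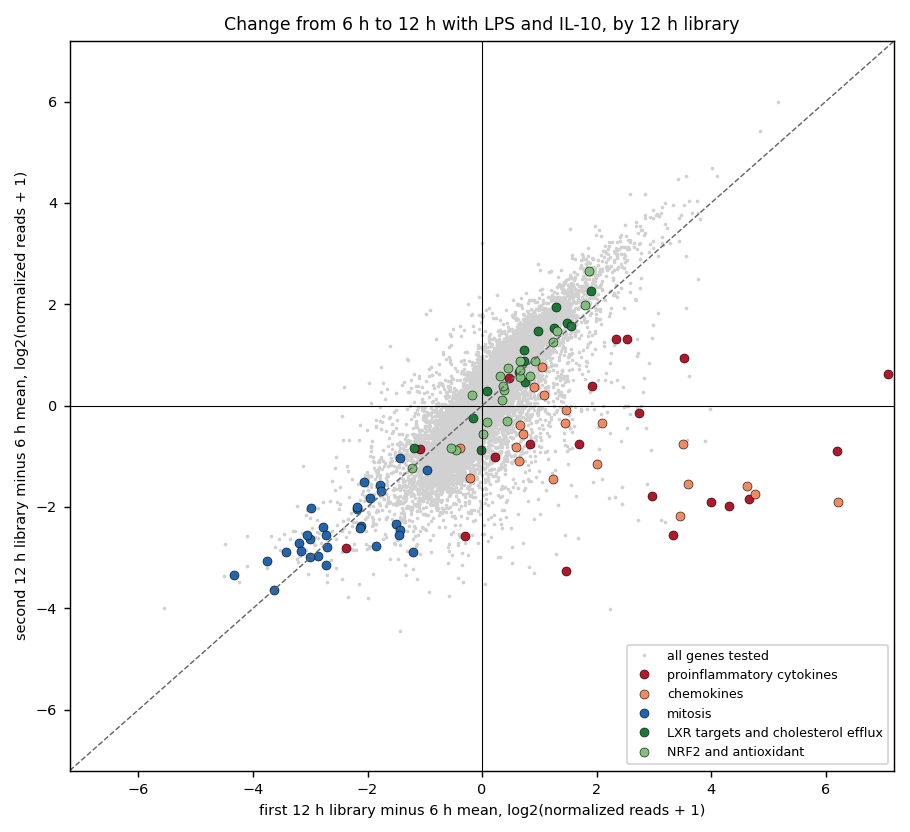
Each point is a gene tested, placed by the log2 difference of the first 12 h library (x axis) and of the second (y axis) from the mean of the 6 h libraries, with the dashed line marking equal values. Mitotic genes (blue) lie low in both libraries, whereas cytokine (red) and chemokine (orange) genes lie to the right in the first and mostly below 0 in the second.

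Genes of the mitotic apparatus moved together and in both libraries. All 30 mitosis genes were tested, all 30 were lower in both 12 h libraries than in both 6 h libraries (34.8% of all genes were), and 23 fell past the threshold (76.7%, against 9.57% of all genes), with a median change of -2.41 against -0.03 over all genes tested. The median was -2.45 in the first 12 h library and -2.56 in the second. For LPS alone the same list had a median of 0.39 and for IL-10 alone of -0.28, but the difference to LPS alone passed for 1 of the 30 genes (0.889% of all genes had a negative difference) and for 0 with the replicate block, 5 in edgeR and 26 in DESeq2. It rests on LPS libraries at 12 h that disagree: the median difference of -2.82 was -1.53 with 9 calls without the first of them and -3.86 with 25 calls without the second. The number past the threshold was 17 without the first 6 h library, 11 without the second, 16 without the first 12 h library and 13 without the second. It was 23 with the GC trend removed, 17 with equal library totals and 21 with quantile normalization. In bulk RNA, fewer cycling cells and less mitotic RNA per cell cannot be told apart.

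Top2a, the topoisomerase that untangles chromosomes before they separate, had 4924 and 6500 normalized reads at 6 h and 859.1 and 642.9 at 12 h. Untreated cells had 10343 and 16471, IL-10 alone 8587 and 8036 at 12 h, and LPS alone 3582 and 700.7. Both 12 h libraries were low, whereas the LPS libraries at 12 h disagreed. Top2a fell by 2.93 ± 0.56 (limma adjusted p = 0.0074), and its adjusted p was 0.067 without the second 6 h and 0.071 without the second 12 h library. Ccnb1, which encodes cyclin B1, the partner of Cdk1 at mitotic entry, had 1278 and 1593 normalized reads at 6 h and 194.6 and 181.2 at 12 h. The libraries of a time lay close together and far from those of the other, and the fall was 2.92 ± 0.41 (adjusted p = 0.0018). Birc5, which encodes the chromosomal passenger protein survivin, had 1557 and 1337 at 6 h and 219.9 and 209.6 at 12 h, a fall of 2.74 ± 0.35 (adjusted p = 0.0013). Nuf2, a subunit of the kinetochore Ndc80 complex, fell by 3.00 ± 0.51 (adjusted p = 0.0046) from 1033 and 1303 to 143 and 145.6. Ccnb2 (-2.32 ± 0.25) and the ubiquitin-conjugating enzyme gene Ube2c (-2.01 ± 0.28) fell as well. These 5 genes, Ccnb1, Birc5, Nuf2, Ccnb2 and Ube2c, kept their call whichever of the 4 libraries was left out.

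Mki67, the gene of the proliferation antigen Ki-67 (chr7:135689784-135716361), had 5043 and 6802 normalized reads at 6 h and 1289 and 1429 at 12 h. It fell by 2.11 ± 0.54 (adjusted p = 0.023), a call lost without the second 6 h library (adjusted p = 0.16), the first 12 h library (0.068) or the second (0.12). LPS alone had 1227 and 1522 at 6 h and 4159 and 874.1 at 12 h, so at 6 h the cells with IL-10 held more Mki67 transcript than those without, and at 12 h the LPS libraries lay on either side. Among the 12 largest falls with a mean of at least 100 normalized reads, Depdc1a, Ccna2, Kif14, Cenpf, Ckap2, Cep55, Kif2c, Shcbp1, Kif11 and Nuf2 are known from mitosis or cytokinesis, with changes from -3.64 (Depdc1a) to -3.00 (Nuf2). Shcbp1 had 939.5 and 1300 normalized reads at 6 h against 168.3 and 107.7 at 12 h, a log2 change of -3.03 ± 0.44 (adjusted p = 0.0023). Among these 10, Shcbp1 and Nuf2 alone kept their call whichever of the 4 libraries was left out. Kif11 (adjusted p = 0.042) also lost it with the GC trend removed (0.052). Cenpf, Kif14, Cep55, Shcbp1 and Kif11 overlap other annotated genes, and since the use of strand in counting is not given, reads may be shared.

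The promoters of Top2a and Cenpf (a kinetochore protein gene) are shown because the mitotic genes moved together and cell cycle promoters are known for CHR elements and CCAAT boxes. They are RefSeq sequences of GRCm38.p6, 250 bases before to 50 after the start, at chr11:99024140-99024439 and chr1:189688037-189688336, both on the minus strand and printed 5′ to 3′. Capitals mark every TTTGAA (CHR) and CCAAT on either strand, in which no letters are shared. Top2a holds 2 CHR matches and 6 CCAAT matches, 5 of the latter on the reverse strand, and Cenpf 1 and 2.
Top2a: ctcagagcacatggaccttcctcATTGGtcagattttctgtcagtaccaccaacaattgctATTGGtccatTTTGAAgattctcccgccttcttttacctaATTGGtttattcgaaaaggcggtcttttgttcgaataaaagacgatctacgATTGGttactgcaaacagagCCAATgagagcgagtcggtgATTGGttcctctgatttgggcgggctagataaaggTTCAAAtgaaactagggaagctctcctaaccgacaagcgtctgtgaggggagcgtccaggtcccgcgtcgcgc
Cenpf: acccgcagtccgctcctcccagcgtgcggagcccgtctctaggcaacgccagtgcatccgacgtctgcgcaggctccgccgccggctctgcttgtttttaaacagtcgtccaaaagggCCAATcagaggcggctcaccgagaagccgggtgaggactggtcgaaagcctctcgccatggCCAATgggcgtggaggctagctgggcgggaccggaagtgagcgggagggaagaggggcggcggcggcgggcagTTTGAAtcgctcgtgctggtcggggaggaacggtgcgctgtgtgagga
A CHR match lay in 20 of the 26 mitosis genes with a promoter in the table (76.9%), against 12.1% of 9401 tested genes and 18.1% of all 27025 promoters. CCAAT lay in 21 of 26 (80.8%) against 39.2% and 37.9%. A match describes these letters and is no evidence of a bound site.

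Replication genes were less uniform. Of 30 tested, 8 fell (26.7%, against 9.57% of all genes) and 1 rose (3.33%, against 9.28%), with a median of -0.90, and 22 lay below both 6 h libraries, as 34.8% of all genes did. Mcm10, which helps load and start the replicative helicase, had 1463 and 1250 normalized reads at 6 h and 659.7 and 364.7 at 12 h. It fell by 1.46 ± 0.24 (adjusted p = 0.0041) and kept its call without any single library. Rrm1, the large ribonucleotide reductase subunit gene, went from 3706 and 4460 to 1078 and 882.1 (-2.06 ± 0.37, adjusted p = 0.0056), which was 0.055 without the second 6 h and 0.056 without the second 12 h library. Without either of those libraries only 1 gene of the list fell. E2f1, which encodes an activator of S-phase genes, rose from 224.9 and 136.2 to 421.3 and 670.1 (1.60 ± 0.40, adjusted p = 0.022, 0.18 without the second 6 h and 0.19 without the second 12 h library, and 0.86 on the log2 scale with the GC trend removed). Pcna, the sliding clamp gene, had 3331 and 4032 at 6 h and 4311 and 4260 at 12 h, a change of 0.23 ± 0.18 (adjusted p = 0.37), which passed with the GC trend removed (0.47, adjusted p = 0.011). Ccnd1, the gene of the growth factor-responsive cyclin D1, had 944.5 and 860.1 at 6 h and 3029 and 3988 at 12 h, both 12 h libraries being higher, and rose by 1.95 ± 0.32 (adjusted p = 0.0039), against 10916 and 9986 in untreated cells. It kept its call without any single library and overlaps another annotated gene.

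**Figure D2:**
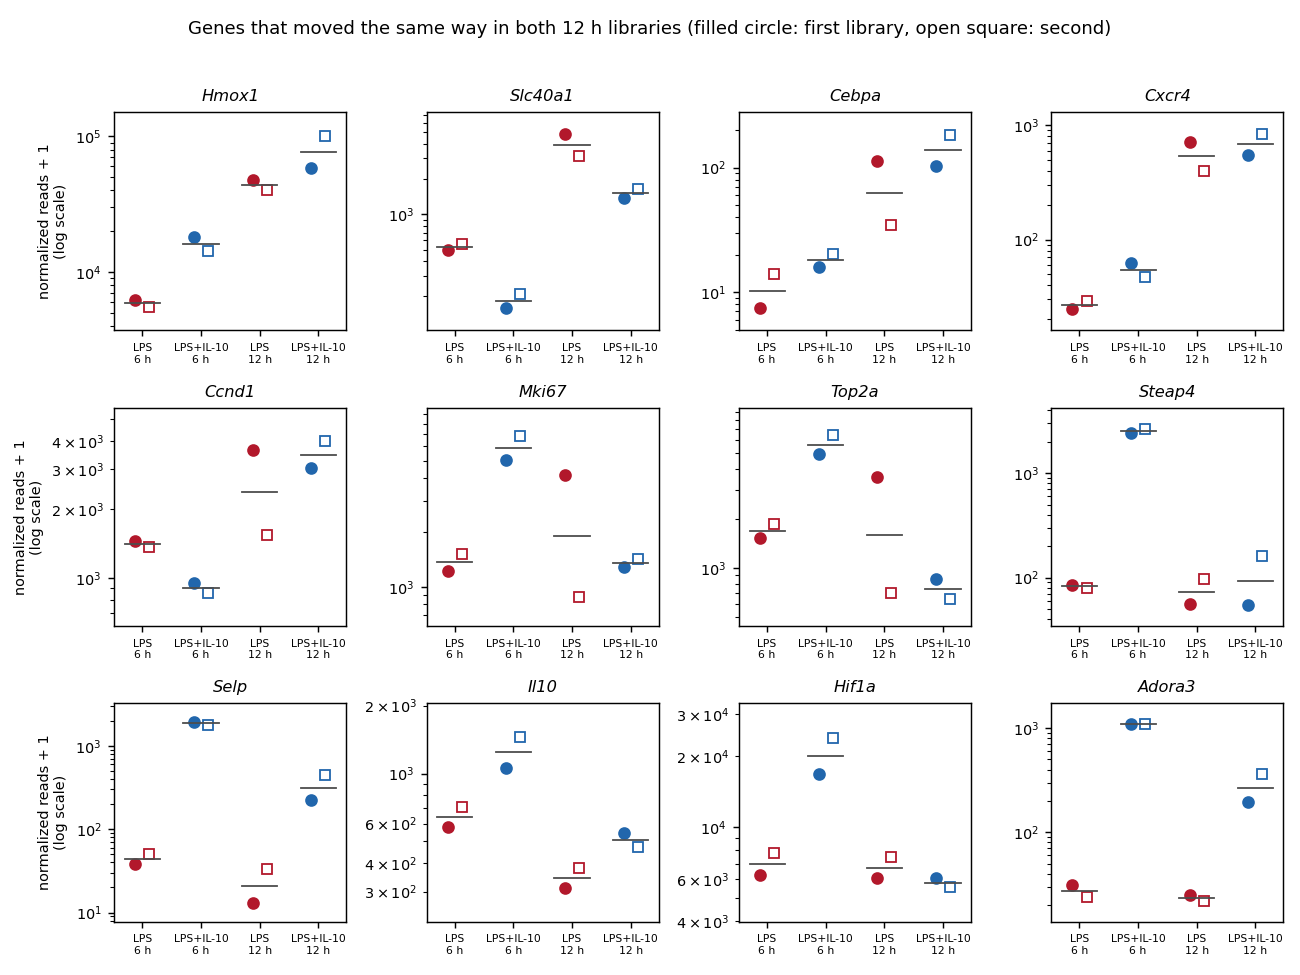
Normalized reads plus 1 on a log axis for 12 genes in each library of LPS alone (red) and LPS with IL-10 (blue) at 6 h and 12 h, filled circle for the first and open square for the second library, grey line at the mean on the log scale. Both 12 h libraries of LPS with IL-10 lie on the same side of both 6 h libraries for each of these genes, as for Hmox1 (58116 and 100510 at 12 h). They lie close together for Top2a (859.1 and 642.9) and farther apart for Steap4 (53.51 and 159.8).

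The largest rises led a group of genes of different function, most of them low at 6 h. Tns1, which encodes the focal adhesion protein tensin 1, had 3.331 and 1.135 normalized reads at 6 h and 86.59 and 129.1 at 12 h, with 301.6 and 200.2 in untreated cells. Both 12 h libraries were above both 6 h libraries, and the change of 5.13 ± 0.50 (limma adjusted p = 0.00043) rests on a few reads at 6 h. Tmem86a, an enzyme gene of lysoplasmalogen breakdown, had 27.48 and 23.83 at 6 h and 431 and 682 at 12 h, a rise of 4.35 ± 0.49 (adjusted p = 0.00067). Zdhhc14, a palmitoyltransferase gene, rose by 4.32 ± 0.66 (adjusted p = 0.0029) from 5.83 and 4.539 to 105.1 and 142.1. In all 3 genes the 12 h libraries agreed and the untreated cells lay above the 6 h libraries.

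Cxcr4, the receptor gene for the chemokine CXCL12 (chr1:128588199-128592293), had 60.8 and 46.52 normalized reads at 6 h and 548.7 and 837.1 at 12 h. The rise was 3.65 ± 0.29 (adjusted p = 0.00021), and untreated cells had 887 and 852.1. LPS alone had 23.85 and 27.74 at 6 h and 717.4 and 394.4 at 12 h, and IL-10 alone 1582 and 1696 at 12 h. Low values at 6 h in both groups with LPS and values near the untreated level at 12 h were thus common to LPS with and without IL-10. Vav2, a guanine nucleotide exchange factor gene for small GTPases, rose from 68.29 and 48.79 to 498.2 and 787.4 (3.42 ± 0.32, adjusted p = 0.00042). Gpr162 (3.60 ± 0.53), Nav2 (3.46 ± 0.57), Zfp704 (3.41 ± 0.35) and Gprc5b (3.40 ± 0.45) completed those that kept their call without any single library. Ypel3, 2900026A02Rik and Arg1 lost theirs without the second 6 h or the second 12 h library. Arg1, the arginase that splits arginine into ornithine and urea, had 39.98 and 41.99 at 6 h and 355.1 and 561.2 at 12 h, against 21.67 and 11.19 for LPS alone at 12 h. Its change was 3.41 ± 0.69 (adjusted p = 0.009, 0.065 without the second 6 h and 0.087 without the second 12 h library). Nav2, Vav2, Zfp704, Gprc5b and 2900026A02Rik overlap other annotated genes.

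Iron and haem genes moved in both directions. Of 18 tested, 5 rose (Slc40a1, Slc11a1, Fth1, Hmox1, Steap3) and 5 fell (Tfrc, Hamp, Steap4, Mt2, Slc39a14). This was 27.8% each way, against 9.28% and 9.57% of all genes. Both 12 h libraries lay above both 6 h libraries in 9 of the 18 and below them in 9, against 30.1% and 34.8% of all genes. Hmox1, haem oxygenase 1, which breaks haem into iron, carbon monoxide and biliverdin (chr8:75093621-75100589), had 17932 and 14156 normalized reads at 6 h and 58116 and 100510 at 12 h. Both 12 h libraries were higher, and the rise was 2.26 ± 0.27 (adjusted p = 0.00092). Untreated cells had 10197 and 7060, LPS alone went from 6197 and 5539 to 47812 and 40439, and IL-10 alone had 8675 and 10230 at 12 h. Slc40a1, ferroportin, the iron exporter (chr1:45908068-45926523), had 157.4 and 208.8 at 6 h and 1387 and 1652 at 12 h. It rose by 3.05 ± 0.27 (adjusted p = 0.0003) and stayed below the 5463 and 9232 of untreated cells. Steap3, an endosomal ferrireductase gene, rose by 1.67 ± 0.27 (adjusted p = 0.0039).

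On the import side, Slc39a14, the zinc and iron importer ZIP14, had 6012 and 6545 normalized reads at 6 h and 1573 and 2324 at 12 h and fell by 1.71 ± 0.19 (adjusted p = 0.00061). Hmox1, Slc40a1, Steap3 and Slc39a14 kept their call without any single library. Tfrc, the transferrin receptor gene, went from 2053 and 3176 to 1184 and 628.7 (-1.56 ± 0.35, adjusted p = 0.015, 0.13 without the second 6 h and 0.15 without the second 12 h library). Hamp, the gene of hepcidin, the hormone that triggers breakdown of ferroportin protein, went from 56.63 and 24.96 to 2.919 and 5.92 (-2.89 ± 0.57, adjusted p = 0.008), and its call held whichever library was left out. Fth1 (0.84, adjusted p = 0.049) lost its call when any 1 of the 4 libraries was left out, with the replicate block (0.076), with library weights (0.084) and under quantile normalization (0.19, adjusted p = 0.52). Mt2 (adjusted p = 0.028) lost its call without the first 6 h library or either 12 h library, and Slc11a1 (1.28, adjusted p = 0.0094) lost it without the second 6 h or second 12 h library and was 0.80 with the GC trend removed. The counts of this list were between 3 rises with 2 falls (without the second 12 h library) and 6 rises with 4 falls (without the first 6 h library).

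Steap4 was the largest fall. It encodes a metalloreductase of iron and copper (chr5:7960457-7982213) and had 2438 and 2663 normalized reads at 6 h and 53.51 and 159.8 at 12 h. Untreated cells had 0 in both libraries, LPS alone 84.57 and 78.32 at 6 h and 55.37 and 95.1 at 12 h, and IL-10 alone at most 85.57. Both 6 h libraries under the joint treatment were high, and no other library of the table was. Steap4 fell by 4.77 ± 1.10 (adjusted p = 0.016). Its large SE is pooled over 7 groups and carries the spread of IL-10 alone at 12 h (85.57 and 3.284), and the call was lost without the second 6 h library (0.1), the first 12 h library (0.067) or the second 12 h library (0.055). The Steap4 promoter (RefSeq, GRCm38.p6, chr5:7960222-7960521, plus strand) is shown because of its joint response to LPS and IL-10, and the capitals mark a palindromic match to TTCNNNGAA, the STAT-type motif, which reads the same way on both strands and so counts as 2 matches at 1 place.
Steap4: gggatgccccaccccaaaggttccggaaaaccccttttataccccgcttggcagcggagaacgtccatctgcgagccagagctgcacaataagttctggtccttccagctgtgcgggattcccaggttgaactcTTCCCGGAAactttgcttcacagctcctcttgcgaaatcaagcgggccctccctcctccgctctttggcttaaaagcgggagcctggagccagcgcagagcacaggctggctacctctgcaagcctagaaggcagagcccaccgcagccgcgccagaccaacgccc
The motif lay in 4 of 22 promoters of the STAT3 and IL-10 response list (18.2%), against 7.16% of tested genes and 8.47% of all promoters.

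Antioxidant genes known as targets of NRF2, a factor freed from KEAP1 by oxidants, rose more often than they fell. Of 21 tested, 7 rose (33.3%, against 9.28% of all genes) and 1 fell (4.76%, against 9.57%), with a median of 0.44. Without a single library the rises numbered 5, 3, 5 and 4 (first and second 6 h, first and second 12 h). Srxn1, sulfiredoxin, which repairs oxidised peroxiredoxins (chr2:152105516-152111376), had 942 and 920.3 normalized reads at 6 h and 3247 and 3667 at 12 h. Replicates lay close together, and the rise was 1.89 ± 0.14 (adjusted p = 0.00021). LPS alone went from 2017 and 2221 to 7996 and 7608, whereas IL-10 alone had 2496 and 2800 at 6 h and 1563 and 1692 at 12 h. Gclm, the modifier subunit of the enzyme that starts glutathione synthesis, rose from 757.1 and 978.1 to 2118 and 2393 (1.39 ± 0.21, adjusted p = 0.0028). Gsr, glutathione reductase, was the member that fell, from 5217 and 5405 to 2271 and 2265 (-1.23 ± 0.17, adjusted p = 0.0016). Nqo1, often used to report NRF2, had 47.47 and 40.85 at 6 h and 38.92 and 50.91 at 12 h, which overlap. Srxn1, Gclm and Gsr kept their call without any single library.

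The promoters of Srxn1 (chr2:152105274-152105573, plus strand) and Gclm (chr3:122245307-122245606, plus strand), again RefSeq of GRCm38.p6, are shown with the antioxidant response element core TGACNNNGC on either strand in capitals, 1 match each, on the reverse strand.
Srxn1: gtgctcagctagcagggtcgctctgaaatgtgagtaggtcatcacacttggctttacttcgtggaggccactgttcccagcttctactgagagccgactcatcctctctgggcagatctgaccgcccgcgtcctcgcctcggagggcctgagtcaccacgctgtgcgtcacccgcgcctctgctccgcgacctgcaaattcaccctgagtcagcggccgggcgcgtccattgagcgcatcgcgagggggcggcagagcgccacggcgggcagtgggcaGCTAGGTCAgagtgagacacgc
Gclm: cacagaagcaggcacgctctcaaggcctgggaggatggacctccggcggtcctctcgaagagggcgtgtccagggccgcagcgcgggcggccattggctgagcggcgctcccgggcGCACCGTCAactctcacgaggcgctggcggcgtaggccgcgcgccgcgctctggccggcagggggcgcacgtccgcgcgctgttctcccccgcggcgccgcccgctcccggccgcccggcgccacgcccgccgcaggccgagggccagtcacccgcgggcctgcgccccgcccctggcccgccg
The core lay in 6 of 18 promoters of the antioxidant list (33.3%), against 15.0% of tested genes and 12.5% of all promoters.

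Targets of the oxysterol receptor LXR and cholesterol efflux genes, read as 1 list, rose more often than they fell. Genes of cholesterol synthesis fell more often than they rose. The rises of the first list were Abcg1, Apoc2, Mylip, Nr1h3, Pltp, Npc1, Npc2 and Arl4c, so they are not a result about efflux alone. Npc1 and Npc2 also belong to the lysosome list and Nr1h3 to the macrophage identity list. Over all genes tested, 9.28% rose and 9.57% fell. Of 14 tested targets of the oxysterol receptor LXR and efflux genes, 8 rose (57.1%) and 1 fell (Abca1), with a median of 0.86 (0.51 with the GC trend removed), and the rises numbered 7, 3, 5 and 2 without the first 6 h, second 6 h, first 12 h and second 12 h library. Abcg1, which exports cholesterol to high-density lipoprotein, had 1417 and 1132 normalized reads at 6 h and 3024 and 3672 at 12 h. Both 12 h libraries were higher (1.39 ± 0.23, adjusted p = 0.0042). Arl4c, a small GTPase gene of cholesterol transport, rose from 179.1 and 200.8 to 713.2 and 916.4 (2.09 ± 0.25, adjusted p = 0.00091). Abca1, which loads cholesterol onto apolipoprotein A-I, went the other way, from 13007 and 17966 to 6756 and 8540 (-1.01 ± 0.23, adjusted p = 0.014, 0.13 without the second 6 h and 0.057 without the first 12 h library, and -0.63 with adjusted p = 0.071 under quantile normalization). Nr1h3, the gene of LXR alpha itself, had 146.6 and 76.03 at 6 h and 312.3 and 318.5 at 12 h (1.57 ± 0.42, adjusted p = 0.028), a call lost without the second 6 h library (0.23), the first 12 h library (0.07) or the second (0.15), and its change was 0.95 with the GC trend removed.

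Of 23 cholesterol synthesis genes tested, 8 fell (34.8%, against 9.57% of all genes) and 1 rose (4.35%, against 9.28%), with a median of -0.44. The rise was that of Dhcr7 (limma adjusted p = 0.019), lost without either 6 h library or the second 12 h library. Falls numbered 9, 1, 8 and 3 without the first 6 h, second 6 h, first 12 h and second 12 h library. Hsd17b7, a sterol reductase gene of the pathway, had 1283 and 1624 at 6 h and 617.8 and 486.6 at 12 h (-1.39 ± 0.23, adjusted p = 0.0039) and kept its call without any single library. Sqle, squalene epoxidase, fell by 1.11 ± 0.20 (adjusted p = 0.006, 0.067 without the second 6 h library).

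Lysosome genes rose in 8 of 32 (25%, against 9.28% of all genes) and fell in none, with a median of 0.40. Both 12 h libraries lay above both 6 h libraries in 22 of the 32, against 30.1% of all genes. Psap, the precursor of the saposins that activate sphingolipid breakdown, had 54839 and 36497 normalized reads at 6 h and 122312 and 166709 at 12 h, a rise of 1.67 ± 0.29 (adjusted p = 0.0049). Its adjusted p was 0.056 without the second 6 h and 0.052 without the second 12 h library, and without those libraries 1 and 0 lysosome genes rose. With the GC trend removed 13 rose, while the median went to 0.25. Among 23 phagocytic receptors, 3 rose (13%) and 1 fell (4.35%), near or below the 9.28% and 9.57% of all genes. Mertk, a receptor for dying cells, had 937.8 and 989.5 at 6 h and 1972 and 2065 at 12 h (1.07 ± 0.18, adjusted p = 0.0041), and Cd300lf, an inhibitory lipid receptor gene, rose by 1.43 ± 0.23 (adjusted p = 0.0039). Mrc1, the mannose receptor gene, went from 34484 and 46470 to 18567 and 16933 (-1.17 ± 0.27, adjusted p = 0.015), a call lost without the second 6 h (0.13) or second 12 h library (0.11). Of 16 macrophage identity genes 5 rose (31.2%, against 9.28% of all genes) and none fell, but their median of 0.29 went to 0.00 with the GC trend removed. Cebpa, a myeloid transcription factor gene, had 14.99 and 19.29 at 6 h and 102.2 and 181.2 at 12 h (2.93 ± 0.51, adjusted p = 0.0049, 0.055 without the second 12 h library), and 398.1 and 305.5 in untreated cells.

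**Figure D3:**
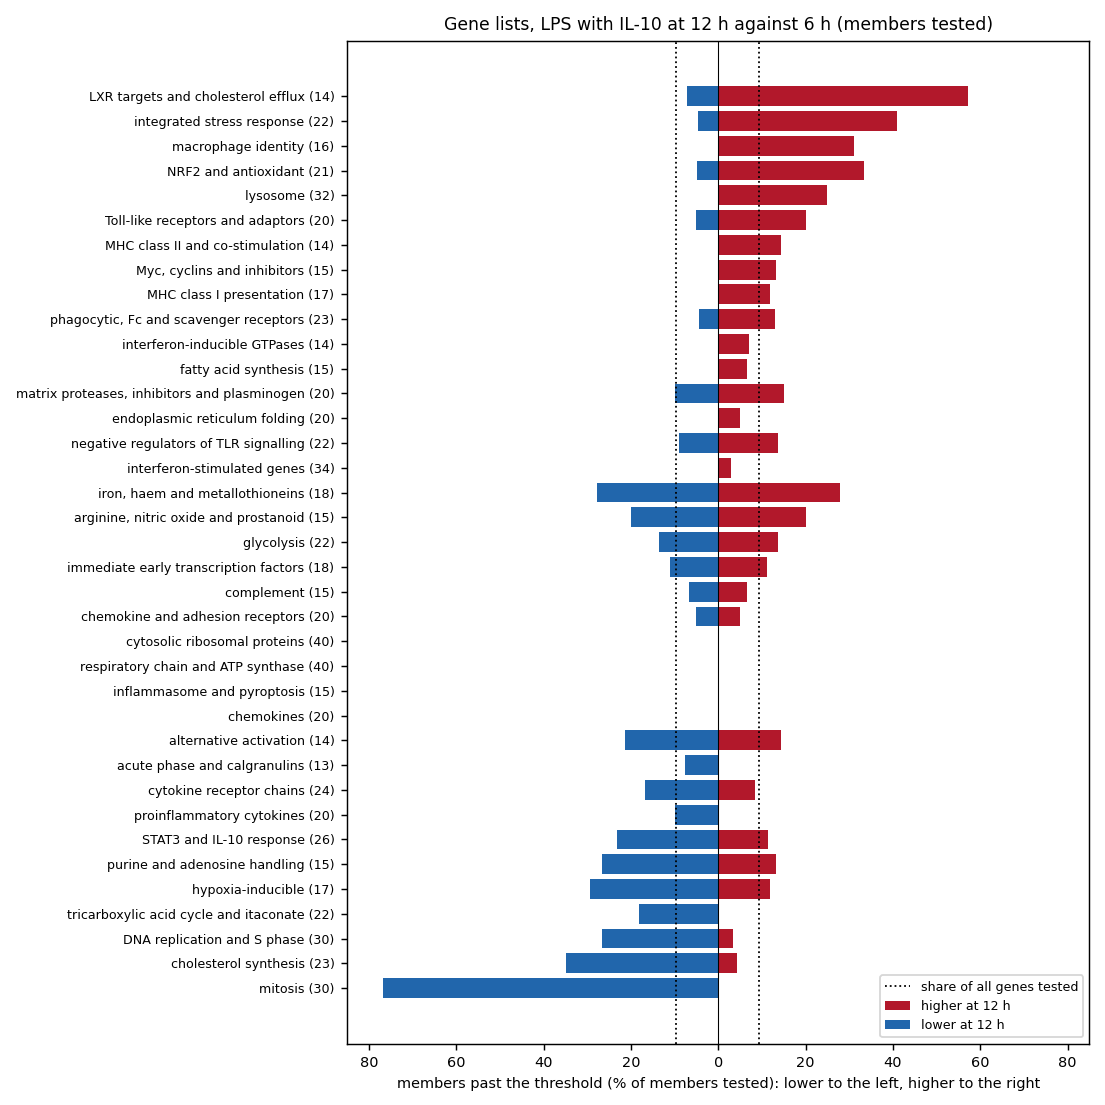
Percent of the tested members of each gene list that were higher (right) or lower (left) at 12 h than at 6 h at an adjusted p below 0.05, with dotted lines at the share of all genes tested (9.28% and 9.57%). Mitosis (76.7% lower) and LXR targets (57.1% higher) lie farthest from those lines.

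Stress and metabolic lists were read next. Over all genes tested, 9.28% rose and 9.57% fell, against 40.9% and 4.55% of the integrated stress response list. Of 22 genes of the integrated stress response, which follows phosphorylation of eIF2 alpha, 9 rose and 1 fell (Psat1, adjusted p = 0.021, lost without either 6 h library or the second 12 h library), with a median of 0.27. Trib3, a pseudokinase gene induced by it, went from 124.1 and 73.76 to 340.5 and 478.3 (2.06 ± 0.36, adjusted p = 0.0049), but its adjusted p was 0.054 without the second 6 h and 0.054 without the second 12 h library, and without either of these no member rose. The change of Trib3 was 1.34 with the GC trend removed. Ern1, the gene of the unfolded protein sensor IRE1, rose from 641.3 and 722.8 to 1257 and 1591 (1.05 ± 0.18, adjusted p = 0.0042), the only call among 20 folding genes of the endoplasmic reticulum, and kept it without any single library. In the tricarboxylic acid cycle list 4 of 22 fell (18.2%, against 9.57% of all genes) and none rose. Fh1, fumarase, had 1480 and 1390 at 6 h and 683 and 547 at 12 h (-1.23 ± 0.17, adjusted p = 0.0016), and Suclg2, a succinyl-CoA ligase subunit gene, fell by 1.33 ± 0.19 (adjusted p = 0.0024). Both kept their call without any single library, and Fh1 overlaps Kmo. Irg1, which makes itaconate, had 153053 and 153211 at 6 h and 161622 and 66701 at 12 h and did not pass (-0.56 ± 0.98, adjusted p = 0.7). Among 40 respiratory chain genes limma and edgeR each called 0 and DESeq2 1, with 10 at an unadjusted p below 0.05. With the GC trend removed 9 of the 40 fell, against 2048 of all 12688 genes in that fit. Among 40 ribosomal protein genes all 3 tools called 0, with 6 at an unadjusted p below 0.05.

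In glycolysis 3 of 22 rose and 3 fell (13.6% each), near the 9.28% and 9.57% of all genes, so values are given for single members only. Slc16a1, the monocarboxylate transporter MCT1 for lactate and pyruvate, had 3272 and 4147 normalized reads at 6 h and 358 and 590.8 at 12 h. It fell by 3.00 ± 0.28 (adjusted p = 0.00042), and untreated cells had 667.8 and 893.6. Pfkfb3, which makes the activator of phosphofructokinase, went from 37808 and 36946 to 9070 and 14472 (-1.71 ± 0.41, adjusted p = 0.018), a call lost when any 1 of the 4 libraries was left out (0.052 to 0.1). Eno2, an enolase gene, rose from 88.28 and 81.7 to 423.2 and 551.7 (2.49 ± 0.25, adjusted p = 0.00045). Slc16a1 and Eno2 kept their call without any single library. Hif1a, the gene of the oxygen-regulated factor HIF-1 alpha (chr12:73901375-73947530), had 16744 and 23870 at 6 h and 6066 and 5559 at 12 h. Both 12 h libraries were lower and close to LPS alone at 12 h (6061 and 7429), and the fall was 1.78 ± 0.29 (adjusted p = 0.0039). Of 17 hypoxia-inducible genes 2 rose (11.8%) and 5 fell (29.4%), against 9.28% and 9.57% of all genes, and the median of -0.11 became 0.10 with equal library totals.

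The response to IL-10 itself was next. Of 26 genes of the STAT3 and IL-10 response list, 3 rose (Il21r, Gadd45g, Trib1) and 6 fell (Stat3, Nfil3, Tnip3, Pim2, Cebpb, Cebpd), with a median of -0.29. The rises (11.5%) lay near the 9.28% of all genes, and the falls were 23.1% against 9.57%. At 12 h the first library lay above both LPS libraries in 13 of the 26 and the second in 16, which was not particular to this list. Of 22 glycolysis genes they did so in 13 and 15, and of 20 chemokine genes in 0 and 0. The share over all genes was not counted. Socs3, the feedback inhibitor of cytokine receptors, had 17975 and 12128 normalized reads at 6 h and 10270 and 14150 at 12 h, which overlap (-0.29 ± 0.40, adjusted p = 0.62). Nfil3, a STAT3-induced repressor gene, had 1451 and 1197 at 6 h and 636.3 and 773.1 at 12 h (-0.91 ± 0.18, adjusted p = 0.0094, 0.05 without the first 6 h library and 0.082 with equal library totals). Tnip3, which restrains NF-kB signalling, went from 98980 and 115104 to 17341 and 19222 (-2.55 ± 0.49, adjusted p = 0.0075, 0.064 and 0.053 without the second 6 h and second 12 h library). Stat3 fell by 0.80 ± 0.22 (adjusted p = 0.028), which did not hold with equal library totals (0.07), with quantile normalization (-0.42, adjusted p = 0.16), without either 6 h library (0.11 and 0.07) or without the second 12 h library (0.2). Pim2 and Trib1 lost their call when any 1 of the 4 libraries was left out, Cebpd without either 6 h library or the second 12 h library, Gadd45g without the second 6 h library or either 12 h library, and Cebpb without the second 6 h (0.069) or first 12 h library (0.051). With the GC trend removed the change of Trib1 went from 0.67 to 0.29 (adjusted p = 0.26), of Gadd45g from 2.43 to 1.60, of Pim2 from -0.76 to -1.20 and of Cebpb from -1.01 to -2.16. Il21r, the interleukin-21 receptor gene, rose from 982.8 and 817 to 2272 and 3700 (1.69 ± 0.26, adjusted p = 0.0028) and kept its call without any single library. Il4ra, a receptor chain for interleukin-4 and interleukin-13, had 42746 and 24906 at 6 h and 18619 and 35569 at 12 h, which overlap. Saa3 (275874 and 206492 at 6 h, 342873 and 437587 at 12 h) did not pass (0.70 ± 0.70, adjusted p = 0.49) and belongs to a family whose members can share reads.

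Genes high under both signals at 6 h and far lower in the other groups included Selp and Adora3. Selp, the adhesion molecule P-selectin (chr1:164115264-164150026), had 1931 and 1768 normalized reads at 6 h and 221.8 and 441.6 at 12 h, against 36.86 and 48.95 for LPS alone at 6 h and 1.873 and 1.239 in untreated cells. It fell by 2.56 ± 0.51 (adjusted p = 0.0086, 0.061 without the second 6 h library). Adora3, the adenosine A3 receptor gene, had 1094 and 1084 at 6 h and 193.6 and 358.7 at 12 h, and fell by 2.04 ± 0.32 (adjusted p = 0.0032), a call kept without any single library. LPS alone had 30.36 and 22.84 at 6 h. Il17ra, the interleukin-17 receptor gene, fell by 1.55 ± 0.23 (adjusted p = 0.0026) from 2947 and 2338 to 733.6 and 1089. Dusp16, a phosphatase gene for JNK and p38 kinases, fell by 1.60 ± 0.23 (adjusted p = 0.0025), and Fosl2, an AP-1 subunit gene, by 1.49 ± 0.17 (adjusted p = 0.00075). Tlr9, the receptor for unmethylated CpG DNA, had 122.4 and 70.35 at 6 h and 527.3 and 825.2 at 12 h, where both libraries were higher. It rose by 2.82 ± 0.36 (adjusted p = 0.0012), with 544.3 and 404.6 for LPS alone at 6 h. Il17ra, Dusp16, Fosl2 and Tlr9 kept their call without any single library. Selp, Adora3 and Dusp16 overlap other annotated genes.

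The 12 h libraries disagreed on many inflammatory cytokine and most chemokine genes. In 8 of 20 cytokine genes and 15 of 20 chemokine genes (4.16% of all genes) the first 12 h library was above and the second below both 6 h libraries. The 12 h libraries both lay above the 6 h libraries in 6 cytokine and 2 chemokine genes (30.1% of all genes). They lay below them in 3 and 1 (34.8% of all genes), and the other 3 and 2 genes overlapped them. The first was higher than the second in 18 of 20 and 20 of 20. Against LPS alone at 12 h, the first library lay between its libraries in 14 of 20 cytokine and 13 of 20 chemokine genes, while the second lay below both in 18 and 19. At 6 h both libraries lay below both of LPS alone in 18 and 19. Such positions were not particular to these lists. Of 40 ribosomal protein genes the second 12 h library lay below both LPS libraries in 39, and both 6 h libraries did in 35. Of 30 mitosis genes these counts were 9 and 0. The first 12 h library was higher than the second in 31 of the 40 ribosomal protein and 11 of the 30 mitosis genes. It lay between the LPS libraries in 15 and 25 of them. The share over all genes was not counted.

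Tnf, the gene of tumour necrosis factor (chr17:35199381-35202007), had 12079 and 10530 normalized reads at 6 h and 87528 and 3275 at 12 h. LPS alone had 258725 and 258132 at 6 h and 38464 and 131395 at 12 h, and untreated cells 1568 and 1454. The first 12 h library thus lay between the LPS libraries of that time, and the second below every LPS-treated library. The change was 0.59 ± 1.13 (limma adjusted p = 0.73), -1.78 without the first 12 h library (adjusted p = 0.081) and 2.96 without the second (0.04). Il6, which encodes interleukin-6 (chr5:30013114-30019981), had 1604 and 2100 at 6 h and 46554 and 507.9 at 12 h, against 100629 and 138443 for LPS alone at 6 h and 14560 and 54961 at 12 h. Its change was 1.41 ± 1.53 (adjusted p = 0.53), -1.85 without the first and 4.66 without the second 12 h library (adjusted p = 0.016). Il1b had 12327 and 12836 at 6 h and 127703 and 2135 at 12 h (0.39 ± 1.41, adjusted p = 0.86), with -2.56 without the first and 3.34 without the second (0.049). Il1a (2356 and 3281, then 55280 and 705.7) and Il12b (1264 and 1355, then 20886 and 346.9) showed the same split.

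Cxcl1, a neutrophil-attracting chemokine gene, had 218.2 and 195.2 normalized reads at 6 h and 2273 and 44.99 at 12 h, and LPS alone 615.1 and 2677 at 12 h. The libraries lay on either side of the 6 h level (0.64 ± 1.34, adjusted p = 0.75, 3.45 with adjusted p = 0.04 without the second 12 h library). Cxcl10, an interferon-induced chemokine gene, had 68700 and 47751 at 6 h and 93497 and 38746 at 12 h. Ccl17 had 3.331 and 2.269 at 6 h and 279.2 and 0 at 12 h, and no fold is given for it. The promoters of Il6 (chr5:30012864-30013163) and Cxcl1 (chr5:90890995-90891294), both on the plus strand, RefSeq of GRCm38.p6, are shown as examples of genes on which the 12 h libraries lay far apart. Capitals mark a form of the NF-kB motif, GGG and TTNCC parted by NN, on either strand, with 1 match in Il6 and 2 in Cxcl1, 1 of them reverse.
Il6: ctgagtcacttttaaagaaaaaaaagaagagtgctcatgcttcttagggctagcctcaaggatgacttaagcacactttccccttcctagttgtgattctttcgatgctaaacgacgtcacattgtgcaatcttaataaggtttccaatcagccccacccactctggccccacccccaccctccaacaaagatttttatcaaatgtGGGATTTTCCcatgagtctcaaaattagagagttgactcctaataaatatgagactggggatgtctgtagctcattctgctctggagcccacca
Cxcl1: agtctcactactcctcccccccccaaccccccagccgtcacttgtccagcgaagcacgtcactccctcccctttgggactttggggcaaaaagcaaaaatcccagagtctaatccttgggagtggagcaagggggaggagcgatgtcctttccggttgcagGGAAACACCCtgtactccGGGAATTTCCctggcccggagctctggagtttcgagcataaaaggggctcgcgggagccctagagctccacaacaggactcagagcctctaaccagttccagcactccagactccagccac
This motif lay in 3 of 14 cytokine promoters (21.4%) and 6 of 13 chemokine promoters (46.2%), against 5.44% of tested genes and 4.71% of all promoters.

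**Figure D4:**
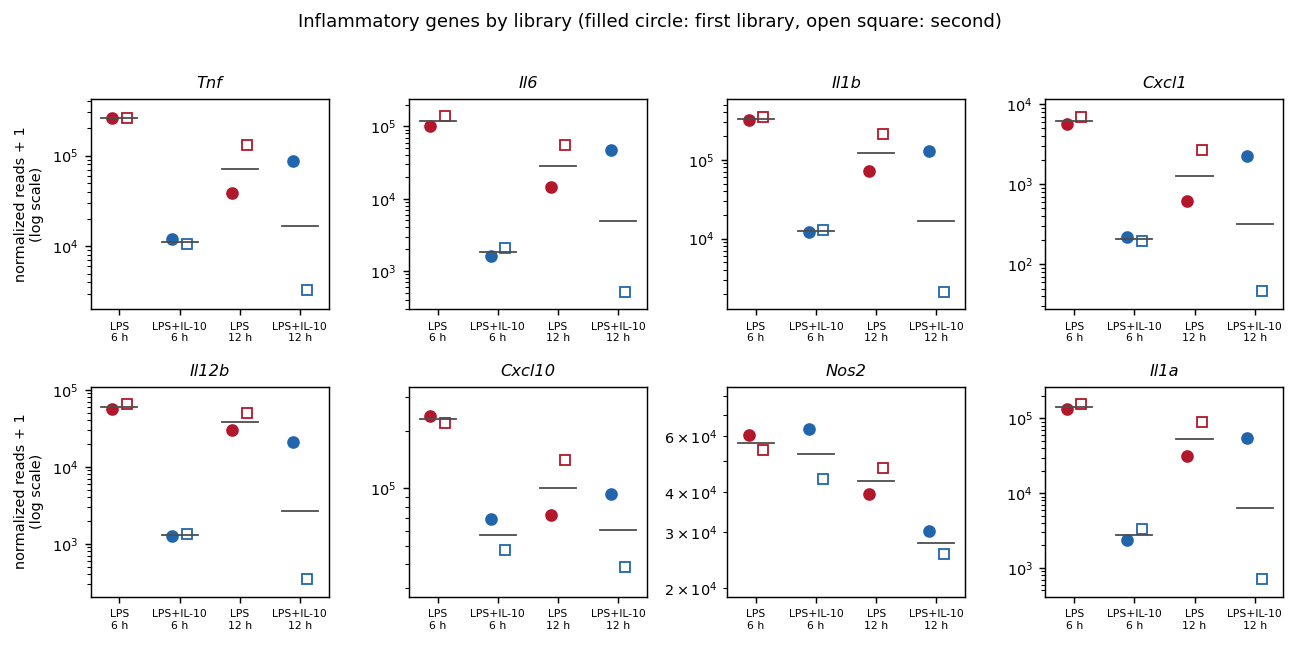
Normalized reads plus 1 on a log axis for 8 inflammatory genes in each library of LPS alone (red) and LPS with IL-10 (blue) at 6 h and 12 h, filled circle for the first and open square for the second library, grey line at the mean on the log scale. For Tnf, Il6, Il1b and Cxcl1 the 12 h libraries of LPS with IL-10 lie on either side of the 6 h libraries, as at 87528 and 3275 normalized reads of Tnf.

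Past the threshold, 2 of 20 cytokine genes fell (Il33, Tnfsf9), none rose and no chemokine gene passed limma. Of the chemokine genes, 3 had an unadjusted p below 0.05, edgeR called 1 and DESeq2 3. In the first 12 h library the median log2 difference from the 6 h mean was 2.43 for cytokine and 1.35 for chemokine genes. In the second it was -0.87 and -0.83. Over all genes tested the median was -0.01 in the first and -0.05 in the second. In the main fit the cytokine falls made up 10% of that list, near the 9.57% of all genes that fell, and 9.28% of all genes rose. Tnfsf9, the 4-1BB ligand gene, had 1542 and 1442 at 6 h and 703.4 and 828.8 at 12 h (-0.96 ± 0.17, adjusted p = 0.005). Il33 rested on 30 reads at 6 h and 3 at 12 h, a ratio of 0.111 (exact 95% interval 0.0217 to 0.358, counting error only), and its call (adjusted p = 0.047) was lost when any 1 of the 4 libraries was left out. Ifnb1, interferon beta, had 7.496 and 20.43 at 6 h and 154.7 and 24.86 at 12 h (2.23 ± 0.78, adjusted p = 0.067), and it passed without the second 12 h library (0.028), in edgeR (0.039) and in DESeq2 (0.0048). Of 34 interferon-stimulated genes only Bst2 rose, with 7125 and 5416 at 6 h and 11397 and 10529 at 12 h (0.82 ± 0.21, adjusted p = 0.024), which did not hold with the GC trend removed (0.14), without the second 6 h library (0.2) or without either 12 h library (0.071 and 0.1). Other genes of the response had both 12 h libraries on the same side. Il1rn, the interleukin-1 receptor antagonist gene, had 260596 and 286056 at 6 h and 153836 and 171301 at 12 h, where both libraries were lower, but did not pass (-0.75 ± 0.81, adjusted p = 0.52). Nos2, inducible nitric oxide synthase, had 63205 and 44117 at 6 h and 30114 and 25522 at 12 h (-0.93 ± 1.16, adjusted p = 0.58). Their SE carries the spread of IL-10 alone at 12 h, where Nos2 had 1750 and 44.

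Whether time acted alike with and without IL-10 was tested as a difference of changes, in which the 6 h and 12 h libraries of LPS alone serve as reference. It differed for 148 genes (1.15%), 34 with a positive (0.265%) and 114 with a negative difference (0.889%). The count was 9 without the second 6 h library of LPS with IL-10, 903 without the second 12 h library of LPS alone and 3 when every 12 h group lost its first library. Lhfpl2, a tetraspan membrane protein gene, had 3399 and 3645 normalized reads at 6 h and 3700 and 5414 at 12 h under both signals, and 93.24 and 99.53 at 6 h and 3273 and 2351 at 12 h under LPS alone. Untreated cells had 2640 and 2646, so the low values were those of LPS alone at 6 h. The difference of changes was -4.49 ± 0.29 (limma adjusted p = 0.00012). Ppp1r3b, a subunit that directs protein phosphatase 1 to glycogen, had 958.6 and 1212 at 6 h and 469.9 and 698.6 at 12 h under both signals, and 45.54 and 42.42, then 564.5 and 414, under LPS alone. The difference was -4.34 ± 0.33 (adjusted p = 0.00031).

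Egln3, the HIF prolyl hydroxylase PHD3 (chr12:54178981-54203860), had 410.6 and 611.6 at 6 h and 420.3 and 644.1 at 12 h under both signals, against 15.18 and 17.95, then 398.4 and 222.4, under LPS alone. Its levels under both signals overlapped over time, and the difference was -4.04 ± 0.48 (adjusted p = 0.0059). Of 17 hypoxia-inducible genes 8 had a negative difference (0.889% of all genes) and none a positive one. Their changes had a median of -0.11 under both signals and 1.05 under LPS alone. Vegfa, vascular endothelial growth factor A, had 360.6 and 300.7 at 6 h and 406.7 and 616.9 at 12 h under both signals, and 52.04 and 66.9, then 1009 and 579, under LPS alone (-3.07 ± 0.46, adjusted p = 0.013). Ndrg1, a hypoxia- and stress-induced gene, went from 7457 and 7604 to 2434 and 3867 under both signals and from 613.7 and 587.4 to 1384 and 1122 under LPS alone (-2.35 ± 0.32, adjusted p = 0.01). Ndrg1 lost this call without the second 6 h library of LPS with IL-10 (0.058) or the first of LPS alone (0.053), and Vegfa without those, the first 6 h or the first 12 h library of LPS with IL-10 (0.054 to 0.069). The 8 calls numbered from 2 (without the second 6 h library of LPS with IL-10) to 8 when any 1 of the 8 libraries of both treatments was left out, and 0 when every 12 h group lost its first library.

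Ankrd37 (-3.84) and Ccnf (-4.31) were the other large negative differences. Ankrd37, Ccnf, Egln3, Lhfpl2 and Ppp1r3b kept their call without any single library, but when every 12 h group lost its first library, Ankrd37 (adjusted p = 0.089), Ccnf (0.11) and Egln3 (0.16) did not. On the positive side were Metrnl (2.41), Inpp1 (2.07), Plk2 (2.06), Rab19 (2.00) and Rhob (1.89), each with an adjusted p from 0.018 to 0.045, and none kept its call under every library left out. Plk2, a kinase gene of centriole duplication, had 3365 and 3757 at 6 h and 14986 and 10934 at 12 h under both signals, and 18024 and 20914, then 14299 and 19591, under LPS alone. It was thus lower with IL-10 at 6 h in both libraries and within the range of LPS alone at 12 h in the first.

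**Figure D5:**
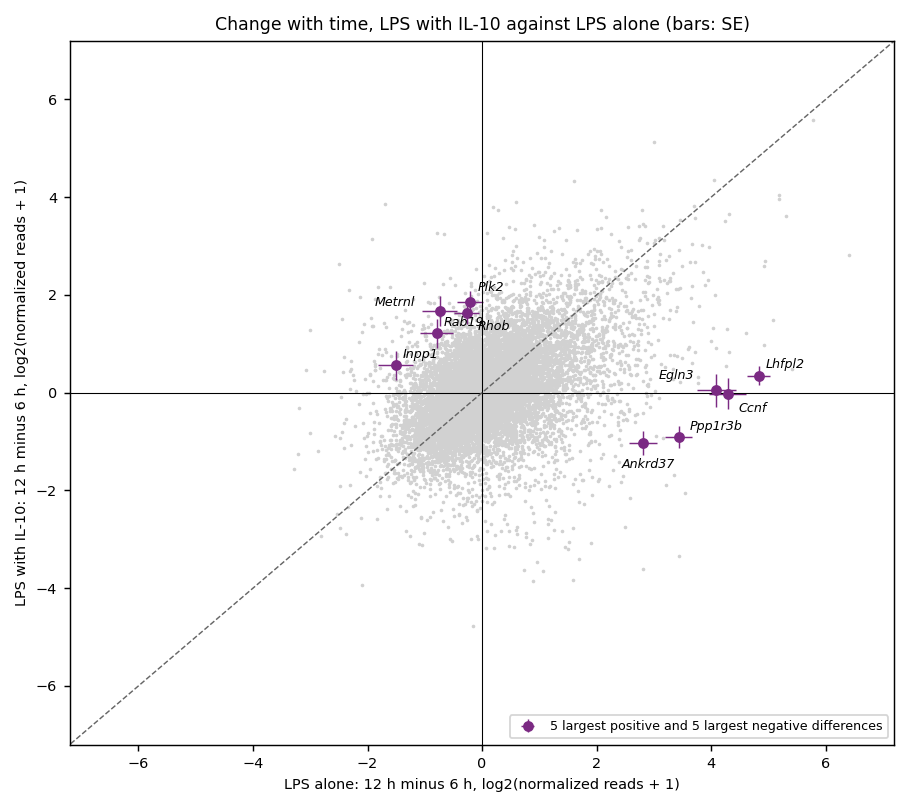
Change from 6 h to 12 h under LPS alone (x axis) and under LPS with IL-10 (y axis), log2 scale, each point a gene tested, with the dashed line at equal change. The 10 named genes carry SE bars, and Lhfpl2, Ppp1r3b, Ccnf, Egln3 and Ankrd37 lie to the right with little or negative change under both signals (Lhfpl2 0.35 against 4.83).

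Against IL-10 alone the change with time differed for 293 genes (2.29%), 190 positive (1.48%) and 103 negative (0.804%), with 4 left without the second 6 h library of IL-10 alone. Srxn1 is an example from the antioxidant list, where 6 of 21 had a positive difference (1.48% of all genes did). It rose by 1.89 under both signals and had a change of -0.70 under IL-10 alone, a difference of 2.59 ± 0.20 (adjusted p = 0.00031). Hmox1 (2.68 ± 0.39, adjusted p = 0.0091) and Slc40a1 (2.98 ± 0.38, adjusted p = 0.0064) also had positive differences. Srxn1 kept its call whichever library was left out, Slc40a1 lost it without the second 6 h library of IL-10 alone (0.061), and Hmox1 without the second 6 h library of LPS with IL-10, either 6 h library or the first 12 h library of IL-10 alone (0.052 to 0.063). The count of 6 was between 1 (without the second 6 h library of IL-10 alone) and 6 when any 1 of the 8 libraries was left out. The largest positive differences were Tns1 (4.37), Gprc5b (4.35), Zdhhc14 (4.20), Tmem86a (3.88) and Nav2 (3.72), and the largest negative fitted ones Steap4 (-8.16), Selp (-4.24), Il2ra (-3.75), Epb41l4b (-3.59) and Casp12 (-3.56). The Steap4 value is no exact size, since IL-10 alone had 0 and 2.354 normalized reads at 6 h and 85.57 and 3.284 at 12 h, and it was -5.21 (adjusted p = 0.052) when every 12 h group lost its first library. All 10 lost their call in at least 1 of the fits with a library left out, and all kept their direction. Il2ra, the interleukin-2 receptor alpha chain gene, had 1298 and 1398 normalized reads at 6 h and 336.6 and 518.6 at 12 h under both signals, and 7.337 and 7.649, then 66.41 and 17.73, under IL-10 alone. Epb41l4b, a cytoskeletal linker gene, fell under both signals from 146.6 and 147.5 to 17.51 and 30.78 (-2.61 ± 0.44, adjusted p = 0.0044), with at most 3.831 under IL-10 alone. The comparisons with LPS alone and with IL-10 alone share the 4 libraries of LPS with IL-10.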

How the data were processed

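Column-purified, DNase-treated RNA went into TruSeq libraries, per the labels' protocols. TopHat2, DESeq2 and the genome GRCm38 are named in the submitters' processing notes, without versions, while counting tool, annotation and use of strand are not stated there. The deposited signal of a gene is its read count after the authors' division by a library size factor, in a table of 38293 genes and 14 libraries. All values (100%) were whole multiples of 1 read within 0.01 reads, so reads were recovered for the count-based alternatives.

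Genes reaching 10 normalized reads in 2 or more libraries were tested with limma 3.58.1 (R 4.3.3, eBayes with trend) on log2(value + 1), in 1 fit of 14 libraries in 7 groups, two-sided, with Benjamini-Hochberg adjustment over the 12817 genes and a threshold of 0.05. Fold changes are on that scale and understate those of low genes, and the SE is pooled over all groups (7 residual degrees of freedom). Alternatives used edgeR 4.0.16 (quasi-likelihood) and DESeq2 1.42.0 on recovered reads, other scalings, filters and pseudocounts, a GC trend fitted and removed in each library, replicate blocks, and each library left out. A group left with 1 library was assumed to vary like the others. The fit was tested on simulated data.

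The comparison and the gene lists were chosen with earlier results of these data known, so they are no independent support. Named genes, 207 in all, were the 12 largest rises and falls among changed genes with a mean of at least 100 normalized reads and no overlap between times, a fixed panel, the 4 smallest p-values of each list, and the 5 largest differences in each direction in the comparisons with LPS alone and IL-10 alone. From these, the text favours genes that kept their call with any library left out. It also names list members (Top2a, Pcna, E2f1, Nqo1, Abca1, Vegfa, Tfrc, Hamp, Pfkfb3, Ccl17) chosen after their values were seen. Further members outside the rule are named because they passed the threshold, such as Cebpd, Dhcr7, Fth1, Gadd45g, Mt2, Pim2, Psat1, Slc11a1 and Trib1. The differences of changes given for Ndrg1, Srxn1, Hmox1 and Slc40a1 lay outside the rule as well. Promoters came from RefSeq. Figures were drawn with matplotlib 3.10.9.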

Additional observations from a re-analysis of the deposited data

Results flagged for a closer look

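These results stand out because the change with time was tested to differ between treatments. Against LPS alone the change from 6 h to 12 h under LPS with IL-10 differed for 148 genes. The largest differences on the log2 scale were -4.49 for Lhfpl2, -4.34 for Ppp1r3b, -4.31 for Ccnf, -4.04 for Egln3 and -3.84 for Ankrd37, and 2.41 for Metrnl, 2.07 for Inpp1, 2.06 for Plk2, 2.00 for Rab19 and 1.89 for Rhob. Of these 10, Lhfpl2 and Ppp1r3b kept their call in every alternative run, and all 10 kept their direction.

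Against IL-10 alone the change with time differed for 293 genes. The largest differences were 4.37 for Tns1, 4.35 for Gprc5b, 4.20 for Zdhhc14, 3.88 for Tmem86a and 3.72 for Nav2, and -8.16 for Steap4, -4.24 for Selp, -3.75 for Il2ra, -3.59 for Epb41l4b and -3.56 for Casp12. The Steap4 value is no exact size, because IL-10 alone was at 0 and 2.354 normalized reads at 6 h. None of these 10 kept its call with every library left out in turn, and all 10 kept their direction.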

How the results depend on the processing

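All 131 named genes that changed between 6 h and 12 h kept their direction in the 19 alternatives run. In several of these alternatives this could not have come out otherwise. The 12 h libraries did not overlap the 6 h libraries in any of the 2416 changed genes, so leaving out a library could not turn the sign. The replicate block, library weights and the fit of only the groups compared left the change of Top2a, for example, at -2.93. Of the 131, 110 kept their call under all 3 scalings and 49 kept it in every alternative. With a library left out, 113 kept it without the first 6 h library, 56 without the second, 105 without the first 12 h library and 65 without the second, 50 in all 4. For LPS with IL-10, 12 h against 6 h, the count of 2416 lay between 441 and 2340 with a library left out and was 3646 with the GC trend removed. The difference to LPS alone (148) ranged from 9 to 903 with a library left out and was 89 with quantile normalization (33.7% positive against 23%), 3 when every 12 h group lost its first library, 61 in a fit of only the groups compared, 1067 with the GC trend removed and 762 in DESeq2. The difference to IL-10 alone (293) ranged from 4 to 422 and was 151 with no filter on low values, 151 when every 12 h group lost its first library, 909 in a fit of only the groups compared, 1204 with library weights, 967 with the GC trend removed and 978 in DESeq2. The cause of these moves was not tested.

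The replicate numbers pair the libraries by number only: deviations of same-numbered libraries of LPS with IL-10 correlated at -0.22 between times and at -0.411 to 0.703 over all pairs of groups. With the replicate block the counts were 2070, 85 and 159, and with the GC trend removed and the replicate block 3352, 736 and 737. With the numbers crossed, chosen after seeing the data, 3085 genes passed.

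Values that turned sign belonged to genes that had not passed in the analysis as reported. With the GC trend removed, with or without the block, these were Ptgs2 (0.20), Dusp1 (-0.22), Ifit1 (0.05), Rsad2 (0.21), Cd38 (0.21), Myc (-0.20) and Egr1 (-0.49). They were Ptgs2 in DESeq2 (0.45) and edgeR (0.53), Rsad2 in edgeR (0.06) and with equal totals (0.12), Timp1 with TMM factors (0.03), edgeR (0.05) and equal totals (0.16), Bcl3 with equal totals (0.11), and Socs3 (0.02), Cd38 (0.03), Egr1 (-0.07) and Nqo1 (-0.24) with quantile normalization. When every 12 h group lost its first library they were Tnf (-1.78), Il6 (-1.85), Il1b (-2.56), Il1a (-1.98), Il12b (-1.91), Il4ra (0.12), Bcl3 (0.39), Cxcl1 (-2.17), Cxcl2 (-0.76), Cxcl10 (-0.56), Ccl2 (-0.08), Fgl2 (-0.03), Timp1 (0.24), Cd274 (-0.08), Myc (-0.05) and Egr1 (-1.16). Of these, Tnf (adjusted p = 0.018), Il6 (0.0086), Il1b (0.005) and Cxcl1 (0.012) passed as falls. With 1 library left out, the lowest and highest values were -1.78 and 2.96 for Tnf, -1.85 and 4.66 for Il6, -2.56 and 3.34 for Il1b, -1.98 and 4.31 for Il1a, -1.91 and 4.0 for Il12b, -0.81 and 0.12 for Il4ra, -0.65 and 0.44 for Bcl3, -2.17 and 3.45 for Cxcl1, -0.76 and 3.51 for Cxcl2, -0.56 and 0.71 for Cxcl10, -0.08 and 1.47 for Ccl2, -0.03 and 0.63 for Fgl2, -0.35 and 0.24 for Timp1, -0.08 and 0.15 for Cd274, -0.05 and 0.32 for Myc, -1.16 and 1.5 for Egr1, -1.96 and 1.32 for Ptgs2, -1.20 and 0.08 for Irg1, -0.10 and 0.41 for Dusp1, -0.78 and 0.16 for Ifit1, -0.54 and 0.35 for Rsad2, -0.17 and 0.2 for Nqo1 and -1.24 and 0.29 for Cd86.

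Depth limits genes with few reads, such as Il33 with 3 reads at 12 h. With 2 libraries a group, the spread is borrowed from all 7 groups, and with 1 of them left out a call rests on a lone library.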
